A study of Mus musculus with 12 samples.

Results

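The paired immunoglobulin-like receptors (PIR) are encoded in mice by a cluster of closely related genes on chromosome 7, and their transcripts were examined here in eosinophils with and without Atg5. The members, chosen by symbol with their measured differences between Atg5-knockout and control eosinophils already known, were Pirb, Pira1, Pira2, Pira6, Pira12, Pira13, Gm15931 and Gm10693. Of these 8 genes, 7 were found among the 53801 genes of the count table, and no identifier carried the symbol Pira6. RNA-seq libraries had been made from eosinophils of 2 tissues, bone marrow and blood, and of 2 genotypes, Atg5-knockout and control, with 3 libraries in each of the 4 groups. The Atg5-knockout mice carried Atg5 flox/flox, eoCre (the Cre recombinase driven by the eosinophil peroxidase gene) and Il5tg (an Il5 transgene driven by the Cd3d gene, which raises eosinophil numbers), and the control mice carried eoCre and Il5tg without floxed Atg5. The series' design gives 3 mice per genotype, and neither age nor sex is stated for them in the labels. Eosinophils of both tissues had been purified by depleting other cells with antibodies, those of blood after a density gradient and lysis of red cells, so the tissue and these added steps cannot be told apart.

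PIR-B is an inhibitory receptor whose cytoplasmic tail, once phosphorylated by kinases such as Lyn, recruits the tyrosine phosphatases SHP-1 and SHP-2, whereas the PIR-A receptors have short tails and signal through the Fc receptor gamma chain, the product of Fcer1g. Both kinds bind MHC class I molecules and are found on B cells and myeloid cells, eosinophils among them, where PIR-B is known to restrain migration toward eotaxin. The Pira genes and Pirb are so alike in their extracellular part that short reads can often not be assigned to 1 gene, which bears on every value below.

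In the count table (GRCm38) Pirb (ENSMUSG00000058818) lies at chr7:3711409-3720391, followed by Pira1 (ENSMUSG00000081665) at chr7:3731630-3739889, Pira13 (ENSMUSG00000074419) at chr7:3816781-3825687, Pira2 (ENSMUSG00000089942) at chr7:3836812-3845051, Gm10693 (ENSMUSG00000074420) at chr7:3860681-3869170 and Pira12 (ENSMUSG00000074417) at chr7:3884242-3898120, all on the minus strand. Gm15931 (ENSMUSG00000081723) lies apart at chr7:4274189-4282645 on the plus strand. Gm15931 and Gm10693 are annotated as transcribed unprocessed pseudogenes and the other 5 as protein-coding genes. Lilra6, which RefSeq also lists under the name Pira3, lies beside Pira12 at chr7:3908280-3915503 and was kept as a comparison gene, not a member.

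Pira1 and Pira2 are the closest pair, and their annotated coding sequences of 2040 bases differ at 17 positions. The stretch of 100 bases within 1 coding exon that differs most between them is shown as an example of where their reads differ. It covers bases 241 to 340 of the coding sequence (minus strand of GRCm39, GENCODE M39), and other differing positions lie outside it. The 7 differing bases are in capitals, at chr7:3742186-3742285 for Pira1 and chr7:3847348-3847447 for Pira2.
Pira1: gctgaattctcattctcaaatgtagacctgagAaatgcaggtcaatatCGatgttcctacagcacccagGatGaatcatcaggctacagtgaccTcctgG
Pira2: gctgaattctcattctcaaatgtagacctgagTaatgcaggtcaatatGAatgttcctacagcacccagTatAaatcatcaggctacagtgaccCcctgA
Transcripts were also compared over the parts that align. Pira1 and Pira2 were 99.5% identical across 3462 aligned bases. Over shorter alignments, Pira1 was 97.7% identical to Pira12 (2161 bases), 96.6% to Pirb (1928 bases) and 96.2% to Gm15931 (1855 bases). Of the 2620 windows of 100 exon bases (the read length) in Pira1, 17.9% occurred once in the genome, and 2045 windows were shared with Pira2. The share that occurred once was 11.2% in Pira2, 34.8% in Gm10693, 37.8% in Pira12, 71% in Pira13, 76% in Pirb and 92.8% in Gm15931. The table's header shows no option to count reads that align to several places. A count for Pira1 or Pira2 therefore rests on a small part of the transcript, and one for Gm15931 on nearly all of it.

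The start regions were alike as well. RefSeq promoter sequences (250 bases before to 50 bases after the gene's start, GRCm38.p6, minus strand) were found for 3 of the 8 members and are printed because these genes, nearly identical at their starts, had different levels between the groups. Pirb (chr7:3720333-3720632) and Pira1 (chr7:3739868-3740167) differ at 8 of 300 bases, given in capitals. Pira2 (chr7:3845002-3845301) overlaps the Pira1 sequence over 272 bases, shifted by 28, with 0 differing bases, and so has no capitals.
Pirb: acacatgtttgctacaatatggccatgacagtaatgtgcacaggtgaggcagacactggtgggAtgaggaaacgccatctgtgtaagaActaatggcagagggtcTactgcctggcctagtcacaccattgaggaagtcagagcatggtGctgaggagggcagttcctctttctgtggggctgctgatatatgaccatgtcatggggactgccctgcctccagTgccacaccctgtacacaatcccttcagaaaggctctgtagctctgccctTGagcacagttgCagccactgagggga
Pira1: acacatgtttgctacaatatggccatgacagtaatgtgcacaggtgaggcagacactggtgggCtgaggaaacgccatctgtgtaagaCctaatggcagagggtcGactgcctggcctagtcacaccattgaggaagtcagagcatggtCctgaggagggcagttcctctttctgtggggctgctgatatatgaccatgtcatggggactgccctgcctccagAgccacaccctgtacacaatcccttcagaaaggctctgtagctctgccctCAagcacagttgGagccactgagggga
Pira2: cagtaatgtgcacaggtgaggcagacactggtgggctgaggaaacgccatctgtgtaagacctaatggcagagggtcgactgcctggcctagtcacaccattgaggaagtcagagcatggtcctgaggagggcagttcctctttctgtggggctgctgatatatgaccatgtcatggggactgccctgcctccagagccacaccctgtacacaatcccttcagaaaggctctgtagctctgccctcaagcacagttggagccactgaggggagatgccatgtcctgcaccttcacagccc
On either strand the letters GAGGAA, a core recognised by PU.1-type factors, occurred 3 times in each of these windows, and 28.3% of the 32851 promoters in the table held them. The letters AGATAA, recognised by the factor family that includes the eosinophil regulator Gata1, occurred in none of these windows and in 11.2% of all promoters, and TTCNNNGAA, of the STAT type, in none and in 8.3%. These counts describe the letters in the windows and say nothing of binding.

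Total counts ran from 18885052 to 30270166 per library. Eosinophil identity was checked with 10 marker genes, all of which were detected in each group. Their summed level was 72237 to 94536 CPM (counts scaled to 1000000 per library after TMM normalization) in bone marrow and 17483 to 47259 CPM in blood. Replicate 1 of control blood stood apart, with 168093 CPM of red cell genes against at most 16622 CPM in any other library. B cell markers were also uneven in blood, with 2182 CPM in Atg5-knockout blood replicate 1 and 1275 CPM in control blood replicate 1, against 179 to 426 CPM elsewhere. Atg5 itself was counted at 30.6 to 33.9 CPM in Atg5-knockout and 40.5 to 45.4 CPM in control bone marrow, and at 36.7 to 52.5 CPM and 40.1 to 58.8 CPM in blood. Counts over the whole gene include exons outside a floxed part, so they do not check the deletion.

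Levels between genes were compared as CPM per kilobase of exon. In control bone marrow eosinophils Pirb, the inhibitory receptor, was highest with 58.9 ± 2.17 CPM per kilobase (mean ± SD, n = 3, as for all levels below), followed by Pira12 with 32.1 ± 8.80, Pira13 with 12.4 ± 1.07, Pira2 with 3.62 ± 1.86, Gm15931 with 2.89 ± 0.653, Pira1 with 1.36 ± 0.587 and Gm10693 with 0.390 ± 0.179. The libraries of neighbours in this order did not overlap except for Pira2 and Gm15931. In control blood eosinophils the order was the same, with 132 ± 26.4 CPM per kilobase for Pirb and 122 ± 19.5 for Pira12, whose libraries overlapped. The other neighbours there did not overlap.

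The order differed in Atg5-knockout eosinophils. In bone marrow the pseudogene Gm15931 came after Pirb and Pira12 with 19.3 ± 1.10 CPM per kilobase, and Pira1 with 9.03 ± 3.10 stood above Pira13 with 6.28 ± 0.517, although these last libraries overlapped. In blood Gm15931 reached 52.9 ± 8.77 CPM per kilobase, overlapping with Pira12 at 42.8 ± 9.36, while Pira1 at 13.6 ± 3.42 overlapped with Pira13 at 11.9 ± 1.66. Gm10693 was lowest on this scale in all 4 groups, at most 2.78 ± 0.418. These ranks depend on the denominator. CPM was also divided by the number of windows that occur once in the genome, a scale chosen after seeing the data. On it Pira12 came before Pirb in all 4 groups. In Atg5-knockout blood Pira13 was lowest, with 20.2 against 26.3 CPM per 1000 such windows for Gm10693. The counts of Gm10693 were taken over 4025 exon bases but its windows over 2037, so its value on this scale is not strictly comparable. In control blood Pira12 had 513 ± 82.2 and Pirb 211 ± 42.4 CPM per 1000 such windows.

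**Figure D1:**
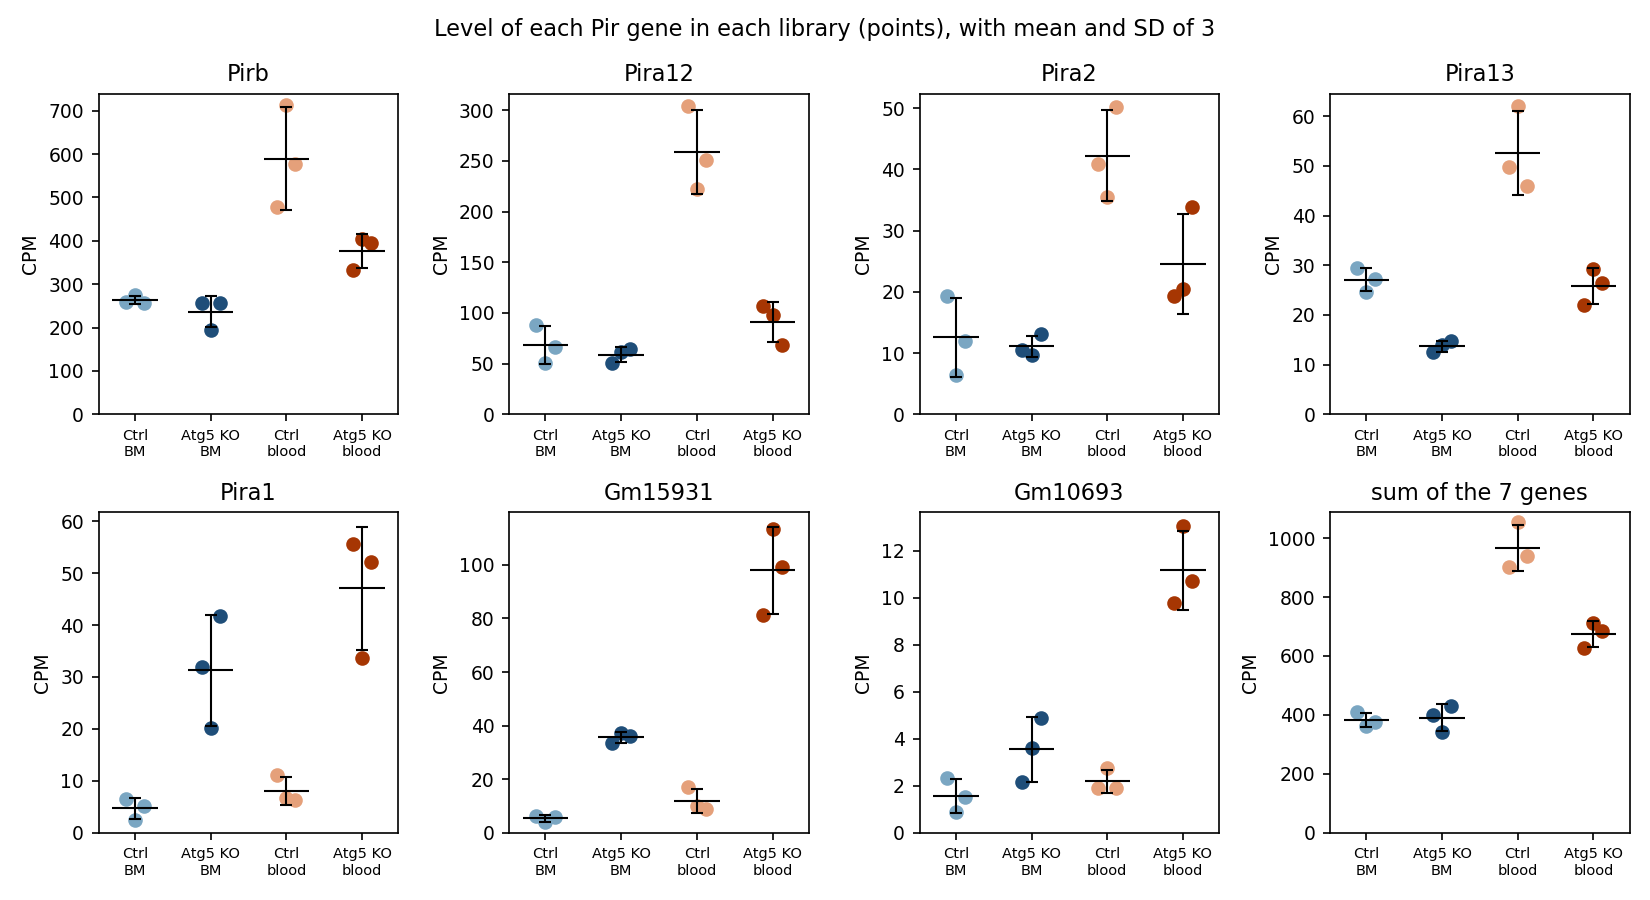
CPM of each of the 7 genes and of their sum (vertical axes, each from 0) in control (Ctrl) and Atg5-knockout (KO) eosinophils from bone marrow (BM) and blood. Points are libraries, horizontal lines are means and bars are SD of 3, and Pira1 and Gm15931 are higher in every Atg5-knockout library than in any control library of the same tissue.

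The comparison of Atg5-knockout with control eosinophils is the one whose results were known when the members were listed, so its values for the members are given as a description. Counts of members past a threshold are printed beside those over all genes and support nothing. In bone marrow the pattern was a shift within the cluster, in which Gm15931 and Pira1 had higher and Pira13 lower counts. In blood Gm15931, Pira1 and Gm10693 had higher counts and Pira13, Pira12, Pira2 and Pirb lower counts, and the sum over the family was lower as well. Not all of these differences passed the test, as given below.

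Gm15931 showed the widest separation. Its level in bone marrow was 33.4, 37.4 and 36.2 CPM in Atg5-knockout replicates 1 to 3 and 6.30, 3.99 and 5.76 CPM in the controls. In blood it was 81.1, 113.5 and 99.3 CPM in Atg5-knockout and 17.1, 10.2 and 8.79 CPM in control replicates. The groups did not overlap in either tissue, with a log2 fold change of 2.70 (SE 0.159) in bone marrow and 3.05 (SE 0.290) in blood.

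Pira1 belongs to the activating receptors, although GENCODE M39 marks its transcript as coding only in genomes other than the reference. In bone marrow it had 31.8, 20.2 and 41.7 CPM in Atg5-knockout and 6.45, 2.47 and 5.17 CPM in control replicates. Blood libraries had 55.6, 33.6 and 52.1 CPM in Atg5-knockout and 11.1, 6.73 and 6.38 CPM in controls. Every Atg5-knockout library was thus above every control library of its tissue, and the log2 fold change was 2.69 (SE 0.309) in bone marrow and 2.57 (SE 0.306) in blood.

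Gm10693 had few counts, 145 over the 3 control libraries of bone marrow and 133 over those of blood. Its Atg5-knockout levels in bone marrow of 2.15, 3.60 and 4.90 CPM overlapped with control levels of 2.31, 0.874 and 1.52 CPM. In blood they were 9.77, 13.05 and 10.7 CPM against 1.89, 2.77 and 1.92 CPM, and the groups did not overlap (log2 fold change 2.36, SE 0.313). In bone marrow the log2 fold change was 1.13 (SE 0.370).

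Pira2 is nearly identical to Pira1 but did not share its pattern. In bone marrow its Atg5-knockout libraries, with 10.5, 9.71 and 13.04 CPM, lay within the control range of 19.3, 6.46 and 11.9 CPM. In blood they were lower, with 19.3, 20.4 and 33.9 CPM against 40.9, 35.5 and 50.2 CPM, without overlap. The log2 fold changes were -0.21 (SE 0.290) and -0.76 (SE 0.268). The bone marrow value turned to 0.23 without control replicate 1 and was -0.52 without control replicate 2. Since most windows of these genes are shared, their counts were also added. The sum of Pira1 and Pira2 had a log2 fold change of 1.26 (SE 0.298) in bone marrow and 0.53 (SE 0.222) in blood, in both tissues less than that of Pira1 alone.

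Pira13 was lower in Atg5-knockout libraries of both tissues by nearly the same factor. Bone marrow had 12.5, 13.9 and 14.7 CPM in Atg5-knockout and 29.4, 24.7 and 27.2 CPM in control replicates. Blood had 22.1, 29.3 and 26.4 CPM against 49.8, 62.1 and 45.9 CPM. Neither pair of groups overlapped, and the log2 fold changes were -1.013 (SE 0.123) and -1.002 (SE 0.203).

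Pira12, the most abundant of the Pira genes, separated by genotype in blood. There it had 106.6, 98.0 and 68.6 CPM in Atg5-knockout and 303.9, 222.0 and 250.8 CPM in control replicates, without overlap, for a log2 fold change of -1.49 (SE 0.219). In bone marrow the Atg5-knockout libraries, with 50.5, 61.4 and 64.4 CPM, overlapped with the controls at 87.9, 50.5 and 66.6 CPM (log2 fold change -0.24, SE 0.169). In a joint fit of all 12 libraries, the log2 fold change in blood minus that in bone marrow was -1.29 (SE 0.305). Over the 14712 genes of that fit, the lowest adjusted p of edgeR's interaction test was 0.41, so no gene was called as differing between the tissues in this contrast.

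Pirb followed Pira12 with smaller differences. In blood it had 331.6, 404.8 and 394.2 CPM in Atg5-knockout and 478.6, 713.8 and 576.6 CPM in control replicates, and the groups did not overlap (log2 fold change -0.63, SE 0.205). Bone marrow libraries overlapped, with 257.1, 195.3 and 256.6 CPM against 258.9, 274.4 and 256.6 CPM (log2 fold change -0.18, SE 0.123).

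**Figure D2:**
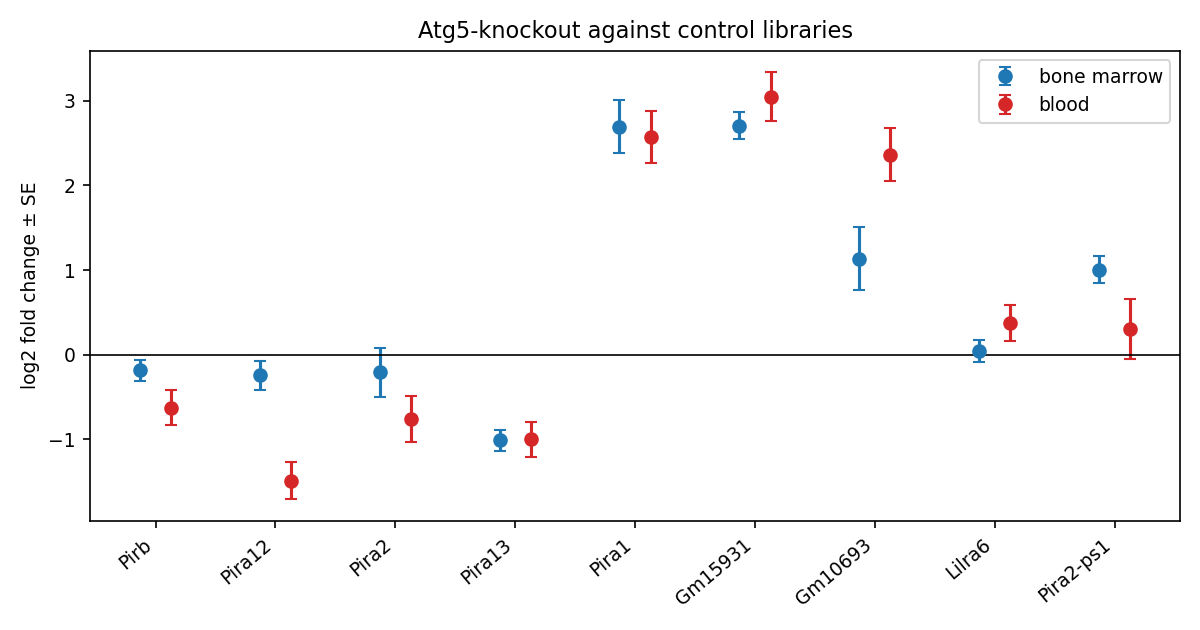
Log2 fold change of Atg5-knockout against control eosinophils with its SE (vertical axis) for the 7 genes and for the related genes Lilra6 and Pira2-ps1, in bone marrow (blue) and blood (red), 3 libraries per group. Pira1 and Gm15931 are above 2 in both tissues and Pira13 is near -1 in both.

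At an adjusted p of 0.05 alone, 3 of the 7 genes passed in bone marrow (Gm15931 and Pira1 higher, Pira13 lower), where 0.348% of all tested genes did, and 2 in blood (Gm15931 and Pira1, higher), where 0.0371% did. With a log2 fold change beyond 2 as well, Gm15931 and Pira1 were higher in bone marrow, where 0.0653% of all tested genes were, and in blood, where 0.0371% were. With the replicate number as a block, which pairs the blood libraries, Gm10693 passed both thresholds as well, making 3 in blood among 8 of all 13460 tested genes past both thresholds, and Pira12, lower, passed the adjusted p alone. In blood, Gm10693, higher, and Pira12 and Pira13, lower, also passed the adjusted p with DESeq2, with all 12 libraries in the fit and without a filter. Past both thresholds, 16, 12 and 60 of all genes were called in these fits, against 5 in the main fit. Gm10693 passed the adjusted p in bone marrow too when no filter was used, where 56 of 24522 tested genes passed both thresholds. Shares over all genes at the adjusted p alone are not given for these settings, and those of the main fit do not apply to them. Groups did not overlap for 3 genes in bone marrow (2 higher, 1 lower), against 14.4% of all tested genes (8.69% higher, 5.67% lower). In blood they did not overlap for any of the 7 (3 higher, 4 lower), against 7.58% (3.53% higher, 4.05% lower). The members were chosen with this contrast known, so nothing is read from these shares. In blood the count past both thresholds was 0 when Atg5-knockout replicate 2 or 3 or control replicate 2 or 3 was left out and 1 without Atg5-knockout replicate 1, with 2 genes past both thresholds over all genes tested in each of the former fits and 3 in the latter, while the log2 fold changes of both genes remained above 2. Without control blood replicate 1, the library rich in red cell genes, the log2 fold changes in blood were 3.39 for Gm15931, 2.86 for Pira1, 2.27 for Gm10693, -0.76 for Pirb, -0.78 for Pira2, -1.04 for Pira13 and -1.36 for Pira12. Without Atg5-knockout blood replicate 1, the library richest in B cell markers, they were 3.16, 2.42, 2.44, -0.55, -0.62, -0.91 and -1.63 in the same order.

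In bone marrow the log2 fold change of the sum over the family lay within its SE of 0. The sum was 390 ± 45.5 CPM in Atg5-knockout and 383 ± 24.6 CPM in control bone marrow eosinophils (log2 fold change -0.00016, SE 0.114). In blood it was 675 ± 44.2 CPM against 966 ± 78.0 CPM, and the groups did not overlap (log2 fold change -0.50, SE 0.174, and -0.54 without control replicate 1). With Lilra6 added, the sum was 1190 ± 141 CPM against 1369 ± 140 CPM in blood, which overlapped. The median log2 fold change over the members was -0.18 in bone marrow and -0.63 in blood, where that over all tested genes was 0.0029 and 0.0062.

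Gm15931 and Gm10693 together took 1.79% ± 0.402 of the counts on the 7 genes in control and 10.2% ± 1.62 in Atg5-knockout bone marrow libraries, and 1.49% ± 0.535 and 16.1% ± 1.62 in blood. Pira1 took 1.21% ± 0.469 and 7.86% ± 1.87 in bone marrow and 0.849% ± 0.330 and 7.07% ± 2.13 in blood. Pira12 took 27.1% ± 6.29 in control and 13.6% ± 3.51 in Atg5-knockout blood, and 17.7% ± 3.75 and 15.2% ± 2.65 in bone marrow. Pirb held the greatest share in all 4 groups, from 55.8% ± 2.45 in Atg5-knockout blood to 69.0% ± 6.23 in control bone marrow. Such shares carry the mapping limits above, because a gene with few unique windows is undercounted.

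**Figure D3:**
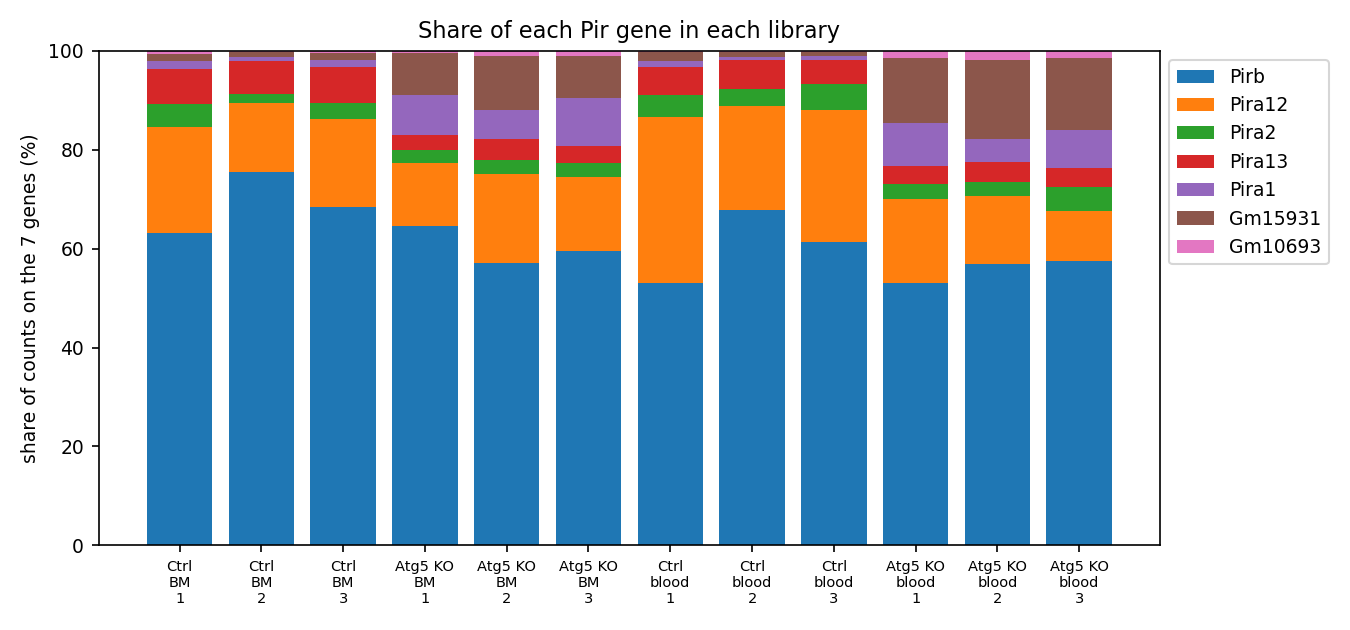
Share of each gene in the counts on the 7 genes (vertical axis, percent) in each of the 12 libraries, numbered by replicate. Gm15931, Gm10693 and Pira1 together fill the top of every Atg5-knockout bar and a thin band of every control bar.

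Other cell types were followed by their markers, and 3 of the lists separated by genotype in blood. Summed B cell markers were 339 to 359 CPM in control and 341 to 376 CPM in Atg5-knockout bone marrow, and 179 to 1275 CPM and 298 to 2182 CPM in blood. Monocyte and macrophage markers had 2373 to 2925 CPM and 2443 to 2916 CPM in bone marrow and 3559 to 3842 CPM and 3275 to 3539 CPM in blood, where the groups did not overlap. Dendritic cell markers had 108.5 to 156.6 CPM in control and 133.1 to 142.0 CPM in Atg5-knockout bone marrow, and 89.07 to 111.8 CPM and 116.9 to 141.0 CPM in blood, again without overlap there. Platelet markers had 345.1 to 440.5 CPM and 367.8 to 407.4 CPM in bone marrow and 436.9 to 695.4 CPM and 288.1 to 335.8 CPM in blood, also without overlap there. Neutrophil markers had 16392 to 23830 CPM and 20497 to 23227 CPM in bone marrow, and 7618 to 14465 CPM and 6227 to 14304 CPM in blood. None of these markers was at 0 in any group, and their part in the PIR values was not tested. In bulk RNA, fewer cells of a type and less RNA per cell cannot be told apart.

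Blood and bone marrow eosinophils were then compared within each genotype, a contrast the choice of members did not use directly. It rests on the same libraries as the contrast between genotypes, so it is not independent of that choice. PIR transcripts were more abundant in blood, in both genotypes. In control mice 5 of 7 genes rose in blood at an adjusted p under 0.05 in edgeR's quasi-likelihood test, where 16.2% of all tested genes did, and in Atg5-knockout mice 6 of 7 did, where 23.5% did. None was lower. The same number of genes, 5, passed in controls without blood replicate 1, where 5926 of 14099 tested genes passed in either direction, against 4678 of 13669 with it. The median log2 fold change over the members was 1.15 and 0.94, and that over all tested genes was -0.0029 and -0.010.

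Among the activating receptors, Pira12 rose from 68.3 ± 18.7 to 259 ± 41.5 CPM in controls (log2 fold change 1.91, SE 0.230, edgeR adjusted p = 0.00046). In Atg5-knockout eosinophils it rose from 58.8 ± 7.32 to 91.1 ± 19.9 CPM (log2 fold change 0.65, SE 0.181, edgeR adjusted p = 0.016). This call was lost without bone marrow replicate 1, bone marrow replicate 2 or blood replicate 2, with adjusted p of 0.080, 0.054 and 0.057. Scaling by library size alone also lost it (log2 fold change 0.43, edgeR adjusted p = 0.12). Pira2 rose from 12.5 ± 6.42 to 42.2 ± 7.43 CPM in controls (log2 fold change 1.74, SE 0.353, edgeR adjusted p = 0.0060) and from 11.1 ± 1.74 to 24.5 ± 8.12 CPM in Atg5-knockout eosinophils (log2 fold change 1.16, SE 0.245, edgeR adjusted p = 0.0043). Pira13 rose by about the same factor in both, with log2 fold changes of 0.95 (SE 0.176, edgeR adjusted p = 0.0039) and 0.94 (SE 0.165, edgeR adjusted p = 0.0018). Pira1 did not pass the test in either genotype, with log2 fold changes of 0.76 (SE 0.394, edgeR adjusted p = 0.16) and 0.61 (SE 0.273, edgeR adjusted p = 0.095) and overlapping libraries. Without Atg5-knockout bone marrow replicate 3 its value in Atg5-knockout eosinophils was 0.86 with an edgeR adjusted p of 0.049. With the replicate number as a block it was 0.63 with an edgeR adjusted p of 0.013. Deviations of these libraries correlated between tissues at -0.11, -0.078 and 0.067 within the numbers, and whether a number marks a mouse is not given.

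The inhibitory Pirb rose from 263 ± 9.69 to 590 ± 118 CPM in control eosinophils (log2 fold change 1.15, SE 0.183, edgeR adjusted p = 0.0019) and from 236 ± 35.6 to 377 ± 39.5 CPM in Atg5-knockout eosinophils (log2 fold change 0.69, SE 0.150, edgeR adjusted p = 0.0051). Bone marrow and blood libraries did not overlap in either genotype.

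Of the pseudogenes, Gm15931 rose from 5.35 ± 1.21 to 12.03 ± 4.48 CPM in controls (log2 fold change 1.15, SE 0.323, edgeR adjusted p = 0.024). That call was lost without any single bone marrow replicate, with adjusted p of 0.055, 0.096 and 0.078, and with scaling by library size alone (edgeR adjusted p = 0.069). In Atg5-knockout eosinophils Gm15931 rose from 35.7 ± 2.03 to 98.0 ± 16.2 CPM (log2 fold change 1.47, SE 0.147, edgeR adjusted p = 8.5e-05). Gm10693 had a log2 fold change of 0.47 (SE 0.449, edgeR adjusted p = 0.45) in controls, with overlapping libraries, and rose in Atg5-knockout eosinophils by 1.67 on the log2 scale (SE 0.315, edgeR adjusted p = 0.0025).

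The sum of the 7 genes was 383 ± 24.6 CPM in bone marrow and 966 ± 78.0 CPM in blood of control mice (log2 fold change 1.32, SE 0.157, and 1.37 without blood replicate 1), and 390 ± 45.5 and 675 ± 44.2 CPM in Atg5-knockout mice (log2 fold change 0.81, SE 0.134). Scaled by library size alone these values were 1.015 and 0.57, and on that scale the median over all tested genes was -0.31 and -0.24. Markers moved between the tissues as well. Eosinophil markers summed to 72237 to 83846 CPM in control bone marrow and 25821 to 47259 CPM in control blood, and to 76804 to 94536 CPM and 17483 to 30938 CPM in Atg5-knockout libraries. The granule gene Prg2 alone had 41380 to 55630 CPM in bone marrow and 7047 to 23810 CPM in blood. Of the surface receptor genes on the list, Il5ra was likewise lower in blood, with 64.84 to 89.7 CPM in bone marrow and 38.63 to 70.74 CPM in blood, whose ranges overlap. Siglecf and Ccr3 were higher in blood, with 345.3 to 463.9 CPM of Siglecf in bone marrow and 591.6 to 931.4 CPM in blood, and 586.4 to 1119 CPM and 1026 to 1976 CPM of Ccr3. T and NK cell markers were at 83.7 to 114 CPM in bone marrow, where Cd3e was at 0, and at 293 to 657 CPM in blood. Monocyte and macrophage markers were at 2373 to 2925 CPM in bone marrow and 3275 to 3842 CPM in blood. Neutrophil markers were lower in blood, with 6227 to 14465 CPM against 16392 to 23830 CPM in bone marrow. Red cell markers in controls were at 1272 to 2280 CPM in bone marrow and 5937 to 168093 CPM in blood. In Atg5-knockout libraries they were at 1885 to 6417 CPM and 4584 to 7091 CPM, which overlapped. The part of these in the tissue difference was not tested.

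**Figure D4:**
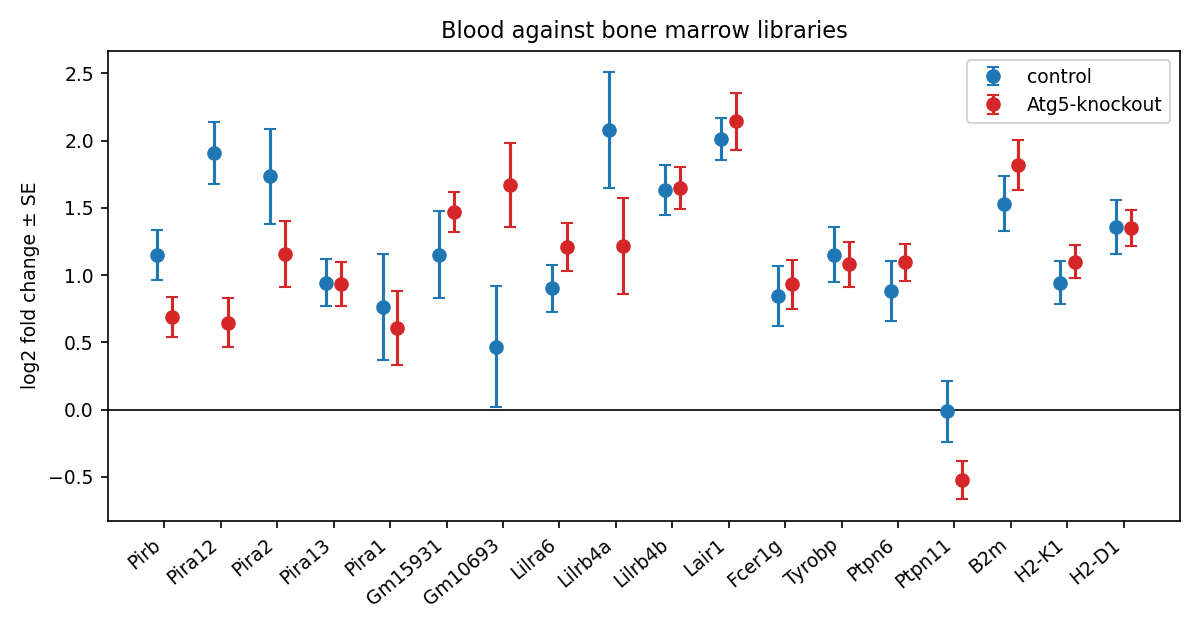
Log2 fold change of blood against bone marrow eosinophils with its SE (vertical axis) in control (blue) and Atg5-knockout (red) mice, 3 libraries per group, for the 7 genes, related receptors, adaptors, phosphatases and MHC class I genes. All values of the 7 genes are above 0, and Ptpn11 is the only gene plotted with negative values in both genotypes.

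Genes that work with the receptors were taken from a list of 29 adaptors, phosphatases, kinases, lipases and ligands. Between Atg5-knockout and control eosinophils 0 of 27 tested passed in bone marrow and 0 of 28 in blood at an adjusted p under 0.05, where 0.348% and 0.0371% of all tested genes did. The lowest edgeR adjusted p was 0.52 in bone marrow and 1.0 in blood, 0 passed an unadjusted p of 0.05 in either tissue (9.67% and 2.58% of all tested genes did), and DESeq2 and limma-voom also called 0. Fcer1g, the signalling chain of PIR-A, was at 430 ± 32.1 CPM in control and 412 ± 50.1 CPM in Atg5-knockout bone marrow, and at 781 ± 212 and 778 ± 177 CPM in blood. Ptpn6, which encodes SHP-1, was at 454 ± 42.6 and 415 ± 33.9 CPM in bone marrow and at 843 ± 236 and 878 ± 98.0 CPM in blood. The MHC class I heavy chain gene H2-D1 was at 1589 ± 87.5 and 1606 ± 134 CPM in bone marrow and at 4106 ± 848 and 4045 ± 159 CPM in blood. All these libraries overlapped between genotypes.

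Between tissues, 19 of 27 of the listed partners rose in blood in controls, 0 fell and 8 did not pass, with a median log2 fold change of 0.76. In Atg5-knockout eosinophils 23 of 28 rose, 1 fell and 4 did not pass, with a median of 0.83. The background is the 16.2% and 23.5% of all tested genes given above. B2m, the light chain of MHC class I, rose by 1.53 (SE 0.206, edgeR adjusted p = 0.00081) and 1.82 (SE 0.187, edgeR adjusted p = 9.8e-05) on the log2 scale in control and Atg5-knockout eosinophils. Lyn, the kinase that phosphorylates PIR-B, rose by 0.51 (SE 0.146, edgeR adjusted p = 0.025) and 1.04 (SE 0.157, edgeR adjusted p = 0.00079). Ptpn6 rose by 0.88 (SE 0.223, edgeR adjusted p = 0.016) and 1.10 (SE 0.136, edgeR adjusted p = 0.00027). Ptpn11, which encodes SHP-2, had a log2 fold change of -0.012 (SE 0.229, edgeR adjusted p = 0.97) in controls and fell by 0.52 (SE 0.140, edgeR adjusted p = 0.014) in Atg5-knockout eosinophils. Ccr3, the eotaxin receptor, which stood outside the list, rose by 0.66 (SE 0.203, edgeR adjusted p = 0.035) and 1.09 (SE 0.239, edgeR adjusted p = 0.0053).

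Related receptors were taken from a list of 14 Pir, Lilr and neighbouring receptor genes, of which 8 were found in the table. Lilra5, Ncr1 and Gp6 passed the filter on low counts only through blood, so no count over the list is given between the tissues. Lair1, an inhibitory collagen receptor, rose from 43.3 ± 1.61 to 176 ± 18.9 CPM in controls (log2 fold change 2.01, SE 0.156, edgeR adjusted p = 4.1e-05). Lilrb4a, which encodes the inhibitory receptor gp49B, rose from 14.4 ± 3.88 to 61.3 ± 39.6 CPM (log2 fold change 2.08, SE 0.431, edgeR adjusted p = 0.0066). Its relative Lilrb4b rose from 126 ± 7.36 to 395 ± 85.2 CPM (log2 fold change 1.63, SE 0.188, edgeR adjusted p = 0.00037), and Lilra6 from 214 ± 24.4 to 403 ± 61.7 CPM (log2 fold change 0.90, SE 0.175, edgeR adjusted p = 0.0048). Ncr1, a receptor of NK cells, was at 0.0541 ± 0.0323 CPM in bone marrow and 13.8 ± 12.2 CPM in blood of controls, beside the higher T and NK cell markers there. Between genotypes 0 of 4 related receptors tested in bone marrow and 0 of 7 in blood passed in edgeR, with 0 and 3 at an unadjusted p of 0.05 (background 9.67% and 2.58%), while limma-voom called 0 and DESeq2 called 1, Lilra5 in blood. Lilra5 in blood had 12.6, 10.2 and 12.2 CPM in Atg5-knockout and 4.94, 3.17 and 1.96 CPM in control replicates, without overlap, with an edgeR adjusted p of 0.76, and Lilra6 had a log2 fold change of 0.04 (SE 0.130) in bone marrow and 0.37 (SE 0.211) in blood.

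The chromosomal surroundings were examined from 200 kb before the first to 200 kb after the last member. The members span 571 kb, and the whole window held 56 genes, 49 of them non-members, of which 16 were tested between genotypes in bone marrow and 20 in blood. In bone marrow 3 of 16 passed an adjusted p of 0.05 in edgeR (background 0.348%; 4 with DESeq2, which added Tsen34, and 3 with limma-voom), and in blood 0 of 20 in edgeR (background 0.0371%; 2 with DESeq2, Eps8l1 and Lilra5, and 0 with limma-voom). At an unadjusted p of 0.05, 5 of 16 passed in bone marrow and 7 of 20 in blood, where 9.67% and 2.58% of all tested genes did. Every non-zero number of passing neighbours given here includes Eps8l1. That gene passed edgeR's filter on low counts only through the control libraries, where it was high, so nothing is read from these numbers. Pira2-ps1, a pseudogene between Pira1 and Pira13, was at 18.9 ± 3.91 CPM in Atg5-knockout and 9.24 ± 0.347 CPM in control bone marrow (log2 fold change 1.001, SE 0.160, edgeR adjusted p = 0.020), and at 25.4 ± 12.3 and 20.8 ± 5.54 CPM in blood (log2 fold change 0.30, SE 0.355, edgeR adjusted p = 1.0). Ndufa3, a subunit of respiratory complex I, fell by 1.03 on the log2 scale in bone marrow (SE 0.185, edgeR adjusted p = 0.036) and had a value of -0.49 (SE 0.205, edgeR adjusted p = 1.0) in blood. Eps8l1, related to an actin regulator, was at 0.0341, 0 and 0.0737 CPM in Atg5-knockout and 3.53, 0.988 and 1.16 CPM in control bone marrow. In blood it was at 0.343, 0.542 and 0 CPM against 14.1, 2.73 and 4.76 CPM, without overlap. Because Eps8l1 passed the filter only through the control libraries, its values are given as a description and no test of it is read.

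Outside the span of the members, the 3 nearest tested genes on each side had the following values. Before Pirb, the ribosomal protein gene Rps9 had log2 fold changes of 0.20 (SE 0.112) in bone marrow and 0.69 (SE 0.272) in blood, the tRNA splicing gene Tsen34 had -0.44 (SE 0.105) and -0.64 (SE 0.261), and the acyltransferase gene Mboat7 had 0.33 (SE 0.120) and 0.45 (SE 0.213), none past the adjusted p in edgeR, while DESeq2 called Tsen34 in bone marrow. After Gm15931, Ncr1 had 1.47 (SE 0.576) in blood, Gp6, a collagen receptor of platelets, had -2.95 (SE 1.20) there, and Rdh13 had 0.18 (SE 0.202) and -0.55 (SE 0.617), again none past it in edgeR. The median over the tested non-members was 0.062 in bone marrow and 0.046 in blood.

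**Figure D5:**
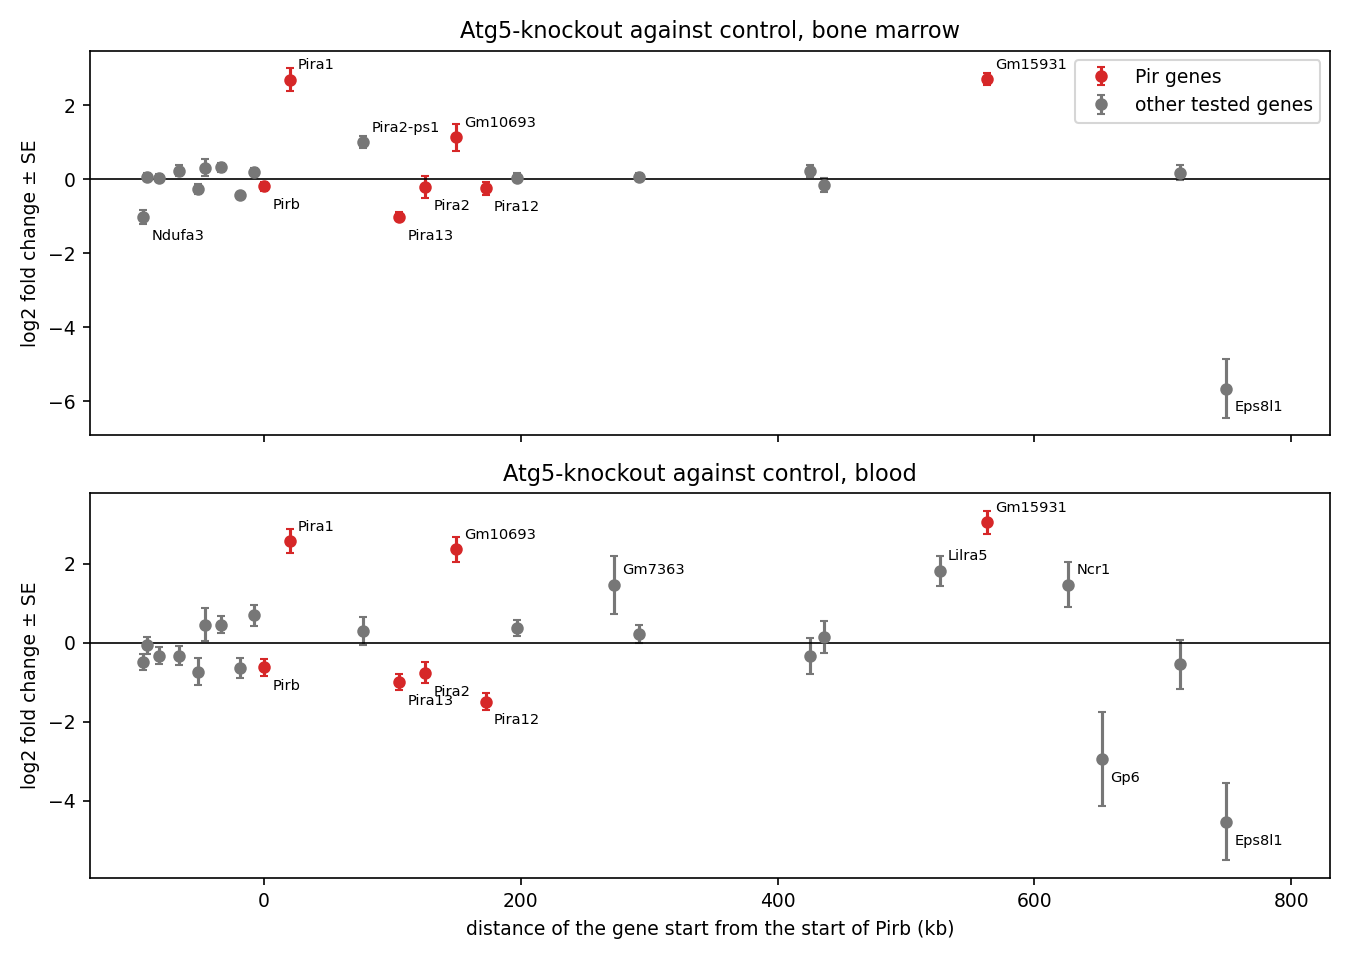
Log2 fold change of Atg5-knockout against control eosinophils with its SE (vertical axis) by the distance of each gene's start from the start of Pirb in kilobases (horizontal axis), for the Pir genes (red) and the other tested genes of the window (grey), in bone marrow (top) and blood (bottom). Genes with higher and lower values are interspersed along the cluster, and Eps8l1 at the far end has the lowest value in both tissues.

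Across the 12 libraries, which share the tissue and genotype differences above, log2 levels of the members fell into 2 patterns. Pira1, Gm15931 and Gm10693 had Pearson correlations of 0.85 to 0.95 with each other, and Pirb, Pira2, Pira12 and Pira13 had 0.76 to 0.87 with each other. Between these sets the values ran from -0.49 to 0.26, that of Pira1 with Pira2 being 0.082. Of 14705 genes outside the family, the 5 most like Pira1 included Gm4742 (Pearson r = 0.957), the lysophospholipid hydrolase gene Gdpd3 (0.946), Or2n2-ps1 (0.936) and E030030I06Rik (0.913). The 5 most like Pirb included the actin-binding gelsolin gene Gsn (0.977), Trappc9 (0.965), 1110065P20Rik (0.963) and the plastin gene Lcp1 (0.963). These are descriptions over 12 libraries, and no test was made.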

How the data were processed

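Single-end reads of 100 bases from stranded mRNA libraries were aligned with HISAT2 2.2.1 per the submitters' processing notes. The authors deposited raw counts per gene, made with featureCounts 2.0.1 on the annotation of Ensembl release 92 for GRCm38 per the file headers, with no strand option, while the study's methods name GRCm39. The header also holds a paired-end flag, and that 1 count stands for 1 single-end read is taken from those methods. Identifiers were given symbols from GENCODE M39 (49674 of 53801 matched). Members, lists and the rule for named genes (the members, the listed related and partner genes, called and nearest neighbours, and the 5 genes most like Pira1 and Pirb) were chosen with earlier results of these data known.

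Each comparison was fitted on its 6 libraries over all genes with edgeR 4.0.16 in R 4.3.3 (TMM normalization, minimum count 10, minimum total count 15, prior count 0.125, quasi-likelihood test, Benjamini-Hochberg adjustment). Each SE printed was the absolute log2 fold change divided by the square root of the quasi-likelihood F statistic. CPM used TMM factors over all 12 libraries. Limma-voom (limma 3.58.1), DESeq2 1.42.0 and other settings were tried as alternatives. Scripts were tested on simulated data. Windows of 100 bases were searched in GRCm39. The main fits held no block, and the replicate number entered as a block only in an alternative setting. The main tests between tissues thus did not use which mouse a library came from. In blood, deviations from the group means correlated between genotypes within each replicate number (0.56, 0.25 and 0.35). What libraries of the same number share is not given in the labels. A protein table was not used here. Of the genes most like Pira1 and Pirb, 2 are not reported here.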

Additional observations from a re-analysis of the deposited data

How the results depend on the processing

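Members past both thresholds between genotypes, given as a description because this contrast was known when they were chosen, numbered 2 in bone marrow in every alternative run. Over all genes tested, 8 (all 12 libraries in the fit) to 56 (no filter) were called in those runs, against 13 in the main fit. In blood the count of 2 became 1 with RLE normalization (4 over all genes tested) and ran from 0 to 2 when single libraries were left out, with 2 to 6 genes called over all genes tested (5 with every library). It was 3 with DESeq2, with all 12 libraries, without a filter and with the replicate block, where 16, 12, 60 and 8 genes were called over all genes tested. In bone marrow and between tissues, deviations within each replicate number correlated at only -0.18 to 0.15, which does not settle whether the numbers pair the libraries. There the replicate block left 2 members called between genotypes and 5 between tissues in controls, and made it 7 in Atg5-knockout eosinophils, where Pira1 passed (edgeR adjusted p = 0.013), with 10, 4912 and 5917 over all genes tested. Between tissues, single libraries left out gave 4 to 5 members in controls, with 2627 to 5926 genes called over all genes tested (4678 with every library), and 5 to 7 in Atg5-knockout eosinophils, with 4584 to 7756 (6592 with every library). Library size alone gave 4 and 5 (5214 and 6591 over all genes tested), with Gm15931 in controls (edgeR adjusted p = 0.069) and Pira12 in Atg5-knockout eosinophils (0.12) lost, and log2 fold changes of the family sum of 1.015 and 0.57. All other values of the sum moved by less than 1 SD between libraries. No log2 fold change of a member changed sign between tissues, and none of a called member between genotypes. Pira2 in bone marrow ran from -0.52 to 0.23 between genotypes. Few unique windows limit Pira1 and Pira2, and few counts limit Gm10693.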
